A study of Mus musculus with 4 samples.

Results

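CpG-dense regions were stretches of autosomal array probes whose sequences held on average at least 5 CG dinucleotides per 100 bases. A region was formed from neighbouring probes of 1 gene name with gaps of at most 1000 bp on the same array, and a CpG-dense region needed at least 2 probes. The rule used the probe sequences and no measured signal, apart from leaving out spots flagged as outliers. It took 745 of 16805 autosomal regions, or 4.43%, and these carried 2557 probes under 744 gene names. The array covering chromosomes 1 to 8 held 358 of them, 3 of chromosome 9 included, and the array covering chromosomes 9 to 19 held 387.

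The study asked how intestinal DNA methylation of C57BL/6 mice, which are inbred, compares between 3 and 32 months of age. Genomic DNA of the 3-month sample carried the green dye Cy3 and that of the 32-month sample the red dye Cy5 on 2 custom Agilent oligonucleotide arrays, and the first array's header marks both DNAs as wild type. Each array held 1 sample per age. The dyes were never swapped, so dye and age cannot be told apart, no p-value is given, and the number of arrays limits the precision. The sources used here give neither the number and sex of the animals behind a sample nor the step that selected DNA by its methylation, so the values below are signals and not methylation levels. The tissue label could not be checked against marker genes, since the arrays measured DNA and not RNA.

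In mammals most DNA methylation sits on the cytosine of CG dinucleotides. A methylated cytosine is prone to mutate to thymine, so CG has become rare in most of the genome and stays frequent mainly in CpG islands, which lie at many promoters and are usually free of methylation in healthy tissue. In ageing intestine and in colon cancer, CpG islands of developmental genes are known to gain methylation.

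The probe sequences show what the rule selected. For Trhde, the gene of a peptidase that degrades thyrotropin-releasing hormone, all 4 probes are shown, because its ratio was the highest among CpG-dense regions called higher with at least 3 usable probes. One probe each follows for the next 3 of that order, for the only region called lower with at least 3 usable probes, for the brightest regions of both ages and for the densest regions. Capitals mark each CG, and sequences are as the array files give them.
Trhde probe 1, chr10:114205267-114205311: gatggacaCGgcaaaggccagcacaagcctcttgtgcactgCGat
Trhde probe 2, chr10:114205670-114205714: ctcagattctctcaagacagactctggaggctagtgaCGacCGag
Trhde probe 3, chr10:114206033-114206077: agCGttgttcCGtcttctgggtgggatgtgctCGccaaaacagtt
Trhde probe 4, chr10:114206243-114206287: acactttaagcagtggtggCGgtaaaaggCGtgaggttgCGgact
Sdk2, chr11:113882641-113882685: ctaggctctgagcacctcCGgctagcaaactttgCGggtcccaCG
Asic2, chr11:80969180-80969224: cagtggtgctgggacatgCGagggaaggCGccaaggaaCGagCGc
Hoxa11, chr6:52176008-52176053: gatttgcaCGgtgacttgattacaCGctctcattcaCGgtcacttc
Gemin7/Zfp296, chr7:18735635-18735680: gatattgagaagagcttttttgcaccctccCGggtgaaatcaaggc
Cdkn1c, chr7:143270657-143270701: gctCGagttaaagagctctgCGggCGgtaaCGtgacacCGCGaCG
D930048N14Rik, chr11:51493673-51493717: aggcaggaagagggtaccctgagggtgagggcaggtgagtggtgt
Rbmxl1/Slc10a7, chr8:81405184-81405228: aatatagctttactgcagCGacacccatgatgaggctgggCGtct
Ccnt1, chr15:98395733-98395777: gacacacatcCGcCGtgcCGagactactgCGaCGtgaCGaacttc
The positions are those of the array files, whose genome build is not given in the sources used here. The Cdkn1c probe holds 7 CG in 45 bases and the D930048N14Rik probe holds 0, so single probes of a CpG-dense region can be free of CG.

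CpG-dense regions differed from the other autosomal regions in more than their CG count. Their median density was 5.56 CG per 100 bases, up to 12.2, against 1.56 in the others. The median G+C share of their probes was 51.1% against 42.8%, and the observed over expected CG ratio was 0.890 against 0.341. CA and TG, the products of CG decay, made up a median of 11.5 per 100 bases against 13.2. The probes were also shorter by design, with 60.2% at the shortest length of 45 bases against 22.9% of other probes. CpG-dense regions had fewer probes, with a median of 3 against 5, and a median length of 640 bp against 1028 bp. The motif CCGG, read on both strands since it is its own reverse complement, was in 14.3% of member probes and in 4.80% of other probes. GCGC was in 16.8% and 3.83%. CCCGGG, which contains CCGG, was in 0.587% and 0.291%, and in 0.848% of those other probes that themselves held at least 5 CG per 100 bases.

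By the array design's annotation, 349 members covered both the promoter and the inside of a gene, 220 lay inside a gene only, 96 in a promoter only and 68 in a promoter shared by divergent genes. Regions inside genes only made up 29.5% of members and 14.2% of the other regions. Chromosome 5 had the largest share of CpG-dense regions, 6.79% of its 1001 regions, and chromosome 3 the smallest, 2.26% of 842. RefSeq promoter windows, which run from 250 bases before to 50 bases after a gene's start on assembly GRCm38.p6, could be matched by probe sequence to 368 members. The matched windows held a median of 9 CG per 100 bases, against 4.33 for the 8249 other regions with a match.

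The signal of CpG-dense regions was higher than that of other regions at both ages. On the first array the median processed signal, in scanner units, was 1038 at 3 months and 1010 at 32 months in CpG-dense regions, against 287 and 282 in the others. The differences in median log2 signal were 1.85 and 1.84, or 3.61-fold and 3.57-fold. On the second array the medians were 540 and 620 against 174 and 164, with differences of 1.63 and 1.92, the latter 3.78-fold. The brightest of 10 equal bins held between 28.7% and 30.4% of the members, depending on array and age. The spread was wide, however, and the middle 50% of the members ran from 0.42 to 2.92 above the array median at 3 months on the first array, while that of other regions ran from -1.66 to 1.31.

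Detection followed the same order before any matching on G+C share. Of the 2557 member probes, 88.6% were well above background at 3 months and 89.2% at 32 months, against 70.7% and 70.9% of 75619 probes in other regions. Only 71 member probes passed at 32 months alone and 56 at 3 months alone. No probe was saturated. Of the 745 members, 706 had at least 2 usable probes, meaning probes well above background at 1 age or both, and ratios are given for those 706. The other 39 had 1 such probe in 37 cases and none in 2, with median signals of 243 at 3 months and 234 at 32 months.

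The brightness followed the G+C share of the probes. When each member was set against other regions in the same of 10 G+C bins on its array, the difference in log2 signal was -0.080 at 3 months and -0.0043 at 32 months, in place of 1.74 and 1.88 over both arrays without matching. By array it was -0.15 and -0.019 on the first, and -0.015 and 0.0094 on the second. Of 16 bins that held members, CpG-dense regions were brighter in 5 at each age, including the bin of the highest G+C share on both arrays. That bin held 435 members. There, on the first array, median log2 signals of CpG-dense and other regions were 10.63 and 10.59 at 3 months, and 10.79 and 10.57 at 32 months, with a median G+C share of 54.1% in the former and 51.7% in the latter. Differences in that bin at 3 and 32 months were 0.047 and 0.22 on the first array, and 0.12 and 0.15 on the second. In the bin next below they were -0.37 and -0.31 on the first array, and -0.36 and -0.24 on the second. The small matched values are thus averages over bins with differences of both signs. The 3 bins of highest G+C share held 643 of the 745 members, so the lower bins rest on few. Detection within G+C bins did not keep the unmatched order throughout. At 3 months, in the bin of highest G+C share, 96.7% of member probes and 96.4% of other probes were well above background on the first array. On the second these shares were 93.7% and 94.0%. In the bin next below they were 88.6% and 92.7% on the first array, and 85.0% and 91.1% on the second. These comparisons were added after the data had been seen.

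**Figure D1:**
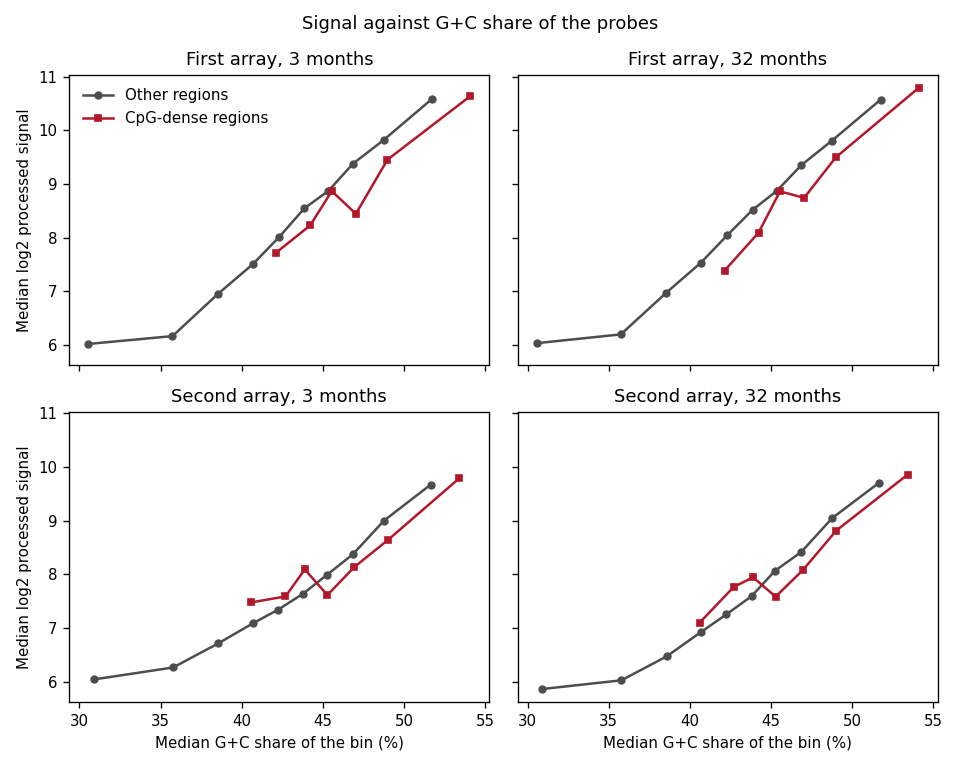
Median log2 processed signal (y) against the median G+C share of the probes in percent (x) in each of 10 G+C bins, for CpG-dense (red squares, bins with at least 5 members) and other autosomal regions (grey circles), by array and age. Both groups rise with G+C share and CpG-dense regions lie above the others in 5 of the 16 bins that hold members at each age.

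Probes within a region gave a like picture. In 604 members with probes both above and below 5 CG per 100 bases, the CG-rich probes were brighter by a median log2 of 1.06 at 3 months and 1.09 at 32 months, and their G+C share was higher by 9.82 percentage points. Their ratio of 32 over 3 months was higher by a median of 0.076, and it was higher in 56.8% of these members. Among all 5339 autosomal regions with such a mixture the difference in ratio was 0.099. In 52 genes that had a CpG-dense and another measured region, the CpG-dense region's ratio was the higher in 23, with a median difference of -0.036.

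By class of density, the first array's median log2 signal relative to its array median rose from -1.34 in regions below 1 CG per 100 bases to 2.81 in those of at least 8 at 3 months. At 32 months these values were -1.31 and 2.77. On the second array the rise was from -0.85 to 2.35 and from -0.99 to 2.28, with the class between 7 and 8 above the last one at 2.90 and 3.04. The ratio changed less across the classes. Its median ran from -0.044 to 0.11 on array 1 and from 0.027 to a highest value of 0.25 on array 2, in the class between 6 and 7. The densest class had only 21 measured regions on array 1 and 17 on array 2.

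**Figure D2:**
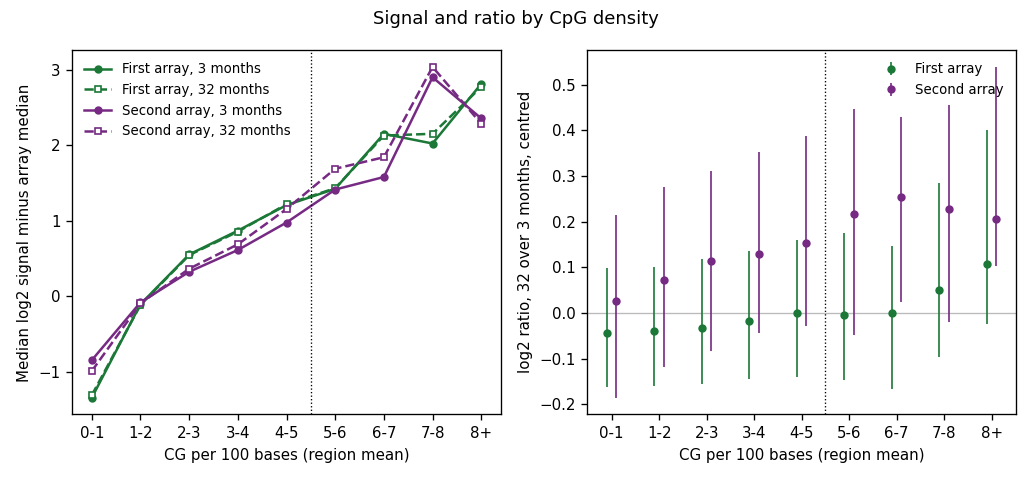
Left, median log2 processed signal minus the array median (y) by class of CpG density (x) for each array and age. Right, median and quartiles of the centred log2 ratio of 32 over 3 months. The dotted line marks 5 CG per 100 bases, where CpG-dense regions begin. The signal rises over several log2 units while the medians of the ratio stay between -0.044 and 0.25.

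The comparison of ages used the log2 ratio of 32-month over 3-month signal. It was centred on the median of all probes of its array with a position and no outlier flag, dim ones included. The uncentred medians were 0.0044 for array 1 and -0.14 for array 2, so centring shifted all ratios of the second array by over 0.1. CpG-dense regions had median ratios of 0.0098 on the first and 0.22 on the second array, and other regions had -0.034 and 0.083. Ratios above 0 were found in 51.8% of measured members of array 1 and 72.3% of array 2, against 42.9% and 61.6% of other regions. The ratio moved with brightness, so members were compared with other regions in the same of 10 brightness bins. Brightness was the mean of the log2 signals of both ages, as the median over a region's usable probes. The difference in median ratio was then 0.073 over both arrays, 0.052 on the first and 0.091 on the second. Over both arrays it was 0.088 with bins by the 3-month signal only and 0.055 with bins by the 32-month signal only. CpG-dense regions had the higher median in 7 of 10 bins of array 1 and in 8 of 10 of array 2.

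**Figure D3:**
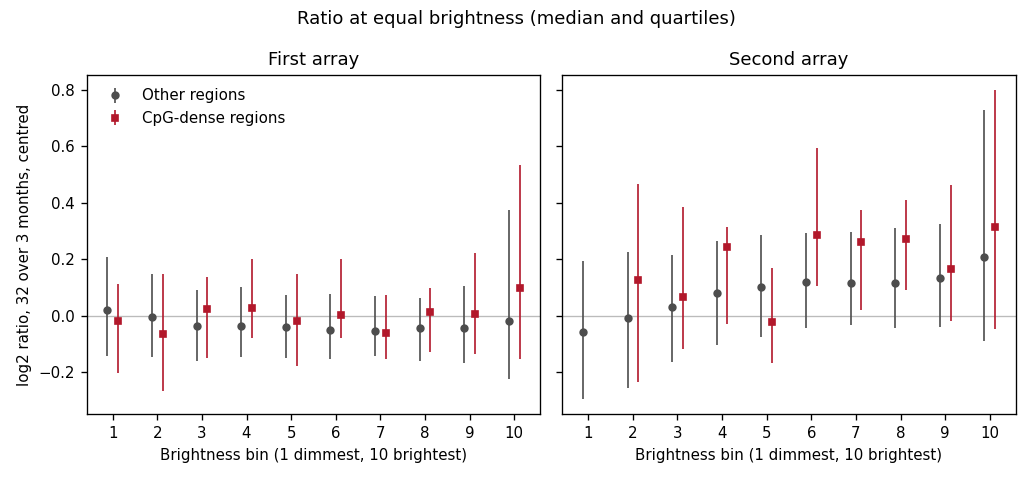
Median and quartiles of the centred log2 ratio of 32 over 3 months (y) in 10 bins of brightness (x) for CpG-dense (red squares, bins with at least 5 members) and other regions (grey circles) on each array. The quartiles of both groups overlap in every bin drawn, and the spread is wide in the brightest bin.

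Most members had nearly equal signals at both ages. On the first array 86.4% of the 338 measured members had a ratio within 0.5 of 0, and on the second 71.7% of 368. The range was from -1.38 to 3.84 and from -2.56 to 4.99, respectively. By chromosome, the members' median ratio was lowest on chromosome 5 at -0.018 and highest on chromosome 17 at 0.31, and the medians of all chromosomes of the second array except chromosome 12, at 0.062, and chromosome 16, at 0.10, were above the 0.12 of chromosome 8, the highest of the first. Array and chromosome cannot be told apart here.

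A region was called higher at 32 months when its median ratio was at least 1, a 2-fold difference, and every usable probe was above 0. The mirrored rule gave lower calls. Of 706 measured members, 30 were called higher and 4 lower, and the others met neither rule. These are 4.25% and 0.567% of members, beside 2.05% and 0.519% of all 14836 measured autosomal regions. Higher calls were more frequent in bright regions of any kind. Brightness takes in the 32-month signal, so part of this link is built in. Calls were not compared in bins by the 3-month signal alone. If members had been called at the rate of other regions of equal brightness, 26.8 would have been called higher and 5.79 lower, so the member counts were close to those of equally bright regions. Of the 30 higher calls, 21 fell in the brightest bin, where 12.7% of 165 members and 10.5% of 1319 other regions were called higher. On array 1 these were 9 of 76 members (11.8%) and 51 of 677 other regions (7.53%). On array 2 they were 12 of 89 (13.5%) and 87 of 642 (13.6%). The members' share was thus the larger on the first array only, where it rests on 9 calls. With brightness and 5 bins of G+C share matched together, for 705 members, other regions' rates gave 25.3 higher and 3.26 lower. The demand on every usable probe is easier to meet with few probes. With brightness and the number of usable probes matched, other regions' rates gave 25.1 higher and 7.03 lower. By array, 10 members (2.96%, beside 1.36% of all regions) were called higher on the first and 20 (5.43%, beside 2.76%) on the second. Higher calls were 88.2% of the members' calls, 76.5% with uncentred ratios and 98.6% after the background correction normexp. Over all 14836 measured autosomal regions 304 were called higher and 77 lower, so higher calls prevailed there too.

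**Figure D4:**
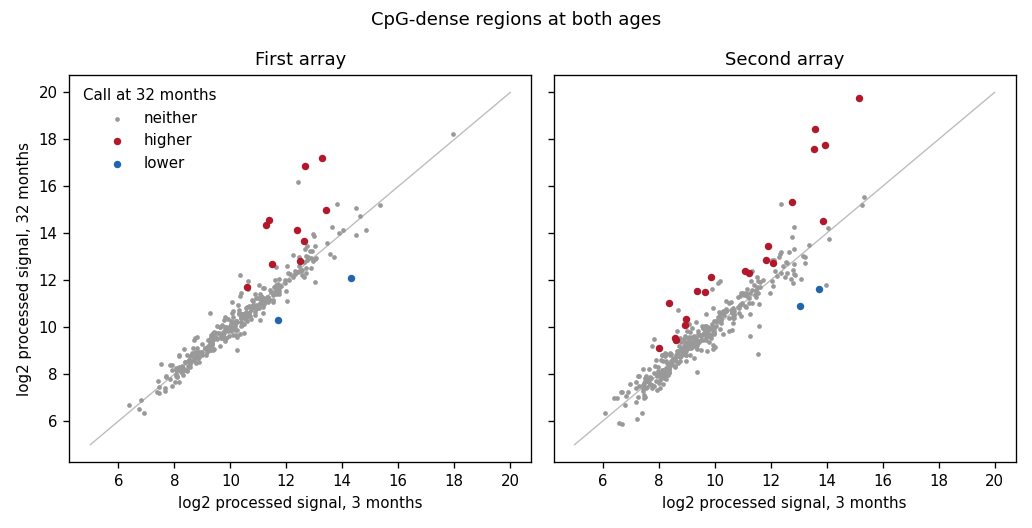
Median log2 processed signal at 32 months (y) against that at 3 months (x) for each measured CpG-dense region on each array, coloured by call. The grey line marks equal signal. Most regions lie along the line, and the higher calls of largest size lie among the bright regions.

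The highest ratios among called regions of at least 3 usable probes belonged to Trhde, Sdk2, Asic2, Hoxa11, Cnr1 and Bmp2, each of which reached a promoter. In Trhde the 4 probes shown above had signals of 42200, 39300, 18400 and 34500 at 3 months. At 32 months they had 650000, 688000, 2750000 and 1170000. All 4 probes were thus brighter at 32 months, with a median log2 ratio of 4.75 ± 1.5 (SD, n = 4 probes), or 26.8-fold, and Trhde was also among the 5 members brightest at both ages. Sdk2, which encodes an adhesion molecule of synapses, had 12500, 13700, 11600 and 4130 at 3 months and 86200, 888000, 453000 and 51400 at 32 months. Its ratio was 4.60 ± 1.48 over 4 probes, and again each probe was brighter at 32 months, which the call requires. Bmp2, the gene of a secreted growth factor that restrains stem cell growth in the intestine, had 882, 2640 and 5180 at 3 months and 12400, 24200 and 48100 at 32 months. Its probes were close in ratio, 3.21 ± 0.35 over 3 probes, although the first held 6 CG and the second 1.

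In several regions a block of probes differed sharply while neighbours within the same region did not. Asic2, which encodes an acid-sensing sodium channel and is named Accn1 in the files, had 5 probes with ratios of 0.46, 3.94, 4.42, 4.71 and 0.49 in order of position. Signals at 3 months were 550 and 509 in its outer probes and 15800, 48600 and 19300 in the inner 3. These probes differ in sequence, so their levels cannot be set against each other, and only the ratios are compared. Cnr1, the gene of the cannabinoid receptor of neurons, showed the same shape with ratios of 0.023, 3.80, 5.67, 4.91 and 0.12. Its last probe had 3 CG and was flat, while the probe with 5.67 had 1, so the ratio did not follow the CG count of single probes here. Hoxa11, a homeobox gene of limb and urogenital patterning, had ratios of 4.26, 3.92 and 3.84 over its first 926 bp and of 0.10 and 0.066 in the next 2 probes. The fourth probe, at 1094 bp, had signals of 4930 and 5310 at the respective ages. Kcnma1, which encodes a calcium-activated potassium channel of smooth muscle and other excitable cells, had 1.64, 1.49 and 1.48 followed by 0.12, although all 4 probes held 3 CG. Its call was lost with uncentred ratios at 1.35, since its last probe was then below 0. With gaps of at most 500 bp it became 2 regions, of which that at 1.57 was called and that at 0.80 was not.

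**Figure D5:**
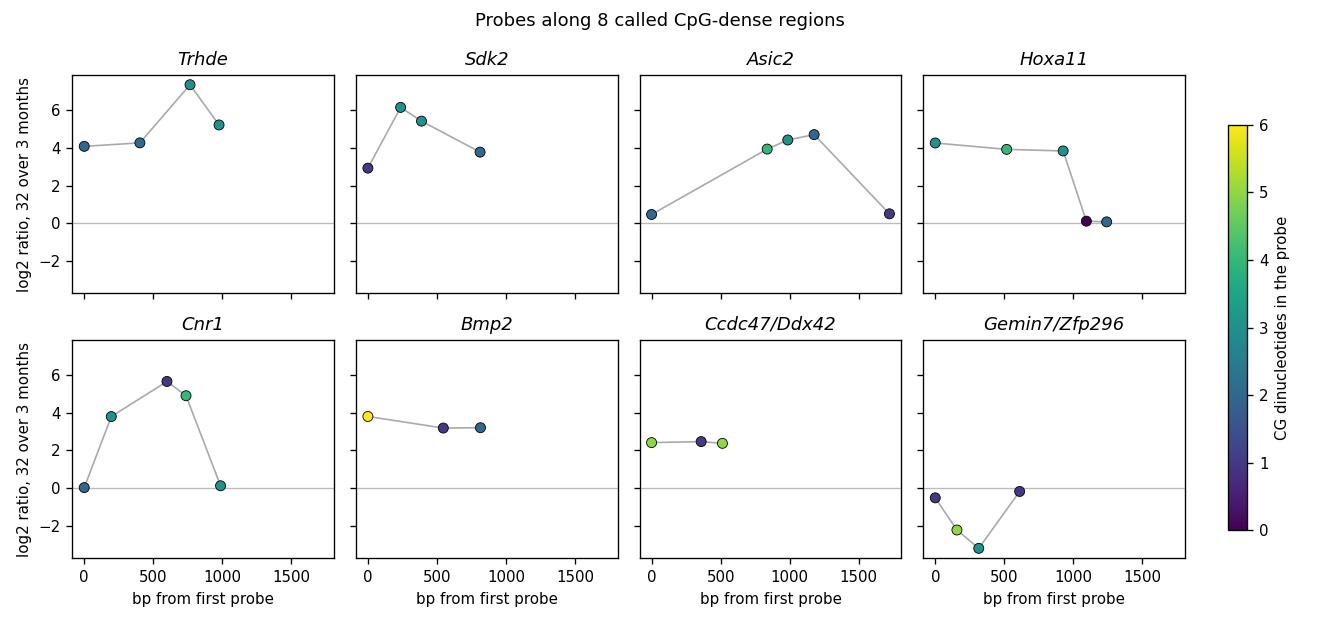
Centred log2 ratio of 32 over 3 months for each probe (y) against its distance from the region's first probe in bp (x) in 8 called CpG-dense regions, coloured by the number of CG in the probe. Asic2, Hoxa11, Cnr1 and Gemin7/Zfp296 hold probes near 0 beside probes far from it, while Bmp2 and Ccdc47/Ddx42 are even along their length.

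RefSeq promoter windows are shown for Kcnk12 and Asic2. These had the highest ratios among named members called higher whose matched window of the same gene held the motif CCCGGG before the start. The motif was thus a condition of the choice, and its presence in both windows is no finding.
Kcnk12, chr17:87797995-87798244, minus strand: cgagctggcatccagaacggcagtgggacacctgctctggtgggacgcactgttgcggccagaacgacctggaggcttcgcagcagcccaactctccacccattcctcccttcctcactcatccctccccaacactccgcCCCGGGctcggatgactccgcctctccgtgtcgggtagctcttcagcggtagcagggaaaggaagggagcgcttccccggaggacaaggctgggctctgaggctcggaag
Asic2, chr11:81152904-81153153, minus strand: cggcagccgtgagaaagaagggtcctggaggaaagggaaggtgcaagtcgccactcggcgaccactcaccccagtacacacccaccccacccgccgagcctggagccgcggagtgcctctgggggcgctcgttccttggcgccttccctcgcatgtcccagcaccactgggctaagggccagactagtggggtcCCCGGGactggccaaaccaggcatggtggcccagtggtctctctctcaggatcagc
Both are on assembly GRCm38.p6, in the direction of the gene, and end just before the start of transcription. Capitals mark CCCGGG, a motif that reads the same on both strands, from base 141 in Kcnk12 and from base 195 in Asic2. The windows hold 16 and 14 CG in 250 bases. In Kcnk12, a 2-pore potassium channel gene, the probe at bases -90 to -46 from the start had 26400 at 3 months and 506000 at 32 months, and the other probe had 5700 and 249000. In Asic2 the probe at -126 to -82 was the one shown earlier, with 15800 and 220000. CCCGGG was present in 26.1% of the windows matched to members, in 15.1% of those matched to other regions and in 13.5% of all 32851 windows, each of 300 bases. These windows of members also held more CG, so a CG-containing motif is met more often in them, and a match is a description only.

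Other called members with at least 3 usable probes had smaller ratios. The promoter shared by Ccdc47 and Ddx42, which encode a protein of the endoplasmic reticulum and an RNA helicase, had 167, 1470 and 942 at 3 months and 810, 7400 and 4450 at 32 months. Its 3 probes gave a ratio of 2.42 ± 0.046, the least spread among the 12 called regions of largest ratio, with probes of 5, 1 and 5 CG. Hsp90b1, the gene of a chaperone of the endoplasmic reticulum, had 2.17 ± 0.46 over 3 probes inside the gene. The adjoining promoter that it shares with Ttc41 was a member of its own and was called too, at 1.68 ± 0.34 over 2 probes, with 6990 and 2150 at 3 months against 17200 and 7390 at 32 months. Zcchc14, a zinc finger protein gene, had ratios of 1.08, 1.75 and 1.89. Kcnn2, the gene of a small-conductance calcium-activated potassium channel, had 1.53 ± 0.62 over 5 probes. Hrk, a gene of a pro-apoptotic protein, had 1.53, 1.45 and 0.36, and lost its call with normexp correction, at 0.72.

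Only 4 members were called lower. The promoter shared by Gemin7, of the complex that assembles splicing particles, and the zinc finger gene Zfp296 had 325, 22300, 36300 and 18300 at 3 months and 227, 4760, 3940 and 16200 at 32 months. Its inner probes had log2 ratios of -2.23 and -3.21, while the outer ones were at -0.52 and -0.18, which again placed the difference in a block. The median was -1.38 ± 1.43 over 4 probes and the call was lost after normexp correction at -0.85. A second, less dense region of the same gene pair, 2787 bp away, was at -0.74 and was not called. The other 3 lower calls rest on 2 usable probes each and were named after their values were seen. C2cd2l had -2.17 and -1.86, and Mgat2, the gene of an enzyme of N-glycan synthesis, had -2.15 and -1.78. Ddx27, an RNA helicase gene, had -2.72 and -0.040.

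The 30 higher calls include 11 that rest on 2 usable probes. The highest was Kcnk12 at 4.99 ± 0.84, followed by Prkaa2, the gene of a catalytic subunit of the energy sensor AMPK, at 3.05 ± 0.22 with signals of 1710 and 3600 at 3 months and 15900 and 26900 at 32 months. In BC011248 the probes had 1.24 and 4.37, and in Adcy5, an adenylate cyclase gene, 1.01 and 4.41. These last 3 were named after their values were seen.

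Gene groups were set out by lists of gene names. Of 11 CpG-dense regions of ion channel and neurotransmitter receptor genes, 10 were measured, 5 were called higher and 0 lower. All 10 had a ratio above 0, beside 62.5% of all measured members and 72.3% of those on the second array. The median of these 10 was 1.45. The share called higher was 4.25% over all members and 2.05% over all regions, and the median over all measured members was 0.096. These lists were chosen with earlier results in view. The members of this list were bright, with a median log2 signal of 12.70 at 3 months, and 4 of the 5 called ones lay in the brightest bin, where 10.5% of other regions were called higher. The called ones were Kcnk12, Asic2, Cnr1, Kcnn2 and Kcnma1. Among those not called, Cacnb2, a calcium channel subunit gene, had 1.41 ± 2.73 over 4 probes, and Grid1, a glutamate receptor gene, had 0.19, -0.38 and 4.66. In Grid1 the third probe alone, 1223 bp from the first, had a large difference, with 1710 at 3 months and 39300 at 32 months. The 196 other measured regions of this list had a median of 0.0052, with 9 called higher and 4 lower.

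Developmental transcription factor genes had 11 measured members, 2 of them called higher and 0 lower, beside 4.25% of all members and 2.05% of all regions called higher. Their median was 0.17. Lmx1b, a LIM homeobox gene of limb and neuron patterning, had 22000 and 5380 at 3 months and 60300 and 17700 at 32 months, a ratio of 1.58 ± 0.19. Pitx1, a homeobox gene of the hindlimb and pituitary, had 1.00 ± 0.61 over 4 probes and lies at the threshold of calling. Barhl2, a homeobox gene of neurons, had a median of 3.47 ± 1.85 over 9 probes but was not called, because its lowest probe was at -0.10. Irx3, an Iroquois homeobox gene, had 10 probes from -1.30 to 2.18 with a median of 0.24, so probes of 1 region can differ in direction. The less dense regions of this list had a median of 0.19, with 29 of 198 called higher. Of 2 Hox members, Hoxa11 was called, and the promoter shared by Evx2 and Hoxd13 had -0.12 ± 0.32 over 3 probes.

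Among 3 members of the Wnt, Fgf and Bmp list, Bmp2 was called, Fgf9, a growth factor gene, had 0.79 ± 0.27 over 6 probes and Bmp8b had -0.23 ± 0.72 over 6 probes. Of 4 measured members in the DNA methylation and Polycomb list, the promoter shared by Pcgf2, a Polycomb complex gene, and the proteasome gene Psmb3 was called higher with ratios of 0.26, 1.17, 1.36 and 1.64. A less dense region of that gene pair, 1461 bp away, was at 0.35 ± 0.16 over 4 probes. The Polycomb genes Cbx7 and Suz12 had 0.23 and -0.075 and were not called. In the list of genes methylated in colorectal cancer or aged colon, none of 3 members was called. Cdkn2a, which encodes cell cycle inhibitors, had a median of 1.75 and Hic1, a tumour suppressor gene, 0.23. The lowest of 3 probes in Cdkn2a was at -0.021.

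Ribosomal protein genes had 12 measured members, none of them called, and 6 of 12 lay above 0 with a median of -0.029. Their ratios ran from -0.56 in Mrps7 to 0.37 in the promoter shared by Ncapd2 and Mrpl51. Imprinted genes, expressed from the copy of 1 parent, had 3 members and no call. Cdkn1c, a cell cycle inhibitor gene expressed from the maternal copy, was the brightest member at both ages, with a median signal of 253000 at 3 months and 304000 at 32 months. Its 7 probes had ratios between 0.26 and 0.81 with a median of 0.52 ± 0.21. The last 3 probes of Cdkn1c held 0 CG and had signals of 278000, 253000 and 318000 at 3 months and of 337000, 304000 and 421000 at 32 months. The imprinted genes Phlda2 and Ube3a had 0.19 and -0.17. Cadherin genes had 2 members, germ cell genes 1 and histone cluster genes 1, and none was called. The lists for intestinal epithelium, immune cells, smooth muscle and stroma, and enteric neurons and glia had 0 CpG-dense regions.

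Apart from Trhde, the 5 members brightest at both ages and the 5 densest members of at least 3 probes were not called. Rfx3, a transcription factor gene named here after its values were seen, was nearly as dense at 8.77 CG per 100 bases and was called higher at 1.44 ± 0.55 over 3 probes. After Cdkn1c, the brightest members were D930048N14Rik at 0.33 ± 0.10 over 3 usable probes, Hsbp1, a heat shock factor-binding protein gene, at -0.30 ± 0.13 over 3 probes, and P4ha1, a collagen prolyl hydroxylase gene, at -0.37 ± 0.75 over 3 probes, 1 of them not well above background at 32 months. The densest member with at least 3 probes was the promoter shared by Rbmxl1 and Slc10a7, with 9.63 CG per 100 bases and ratios of 1.02, 0.40 and 0.069. Ccnt1, the gene of cyclin T1, had 9.57 CG per 100 bases and 0.14 ± 0.41 over 5 probes, and Syt7, a synaptotagmin gene, had 8.86 and 0.34 ± 0.28 over 3 probes. The promoter shared by Dnajb4 and Fubp1 turned within 311 bp from -1.30 to 1.31 and 2.21, and was not called.

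Just inside the density threshold, at 5 CG per 100 bases, Dolk had a ratio of 0.12 and Itprid2 of -0.13. Just outside, Zfp41 at 4.996 and Tmem245 at 4.990 had 0.58 and -0.0044.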

How the data were processed

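The data were 2 two-colour arrays of genomic DNA, with 1 sample per age on each. Per the submitters' processing notes, Agilent Feature Extraction 9.1.3.1 read the images. From the deposited intensity values the processed signals were used, which per the file headers had background subtracted, spatial trends removed and the dyes balanced linearly, with no lowess. The deposited mean and local background intensity values served in 1 alternative. The deposited 0 or 1 flags marked probes well above background, outliers and saturation, and 39 probes with an outlier flag and 271 without a position were left out. The 2 files deposited per array were identical, and 0 columns stayed unmatched.

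A probe was usable when well above background at 1 age or both, and each region was given the median of its usable probes. Log2 ratios were centred on each array's median. Regions were matched in 10 bins of brightness or G+C share per array, and differences in medians were weighted by the number of CpG-dense regions per bin. SDs are over probes of 1 region, not over animals. Alternatives included limma 3.58.1 normexp with an offset of 50 in R 4.3.3. Other steps used Python 3.11.15 and pandas 2.3.3, and the scripts that call regions were tested on simulated data. Among member gene names, 617 were current, 165 were updated through RefSeq and 28 kept the file's name. Named regions are the 12 higher and up to 8 lower calls of largest size among members of at least 3 usable probes, at most 3 called members of each list, the 5 brightest, the 5 densest and those at the threshold. Members beyond these that the lists hold are given as values. The members, lists and rules were chosen with earlier results of these data known.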

Additional observations from a re-analysis of the deposited data

How the results depend on the processing

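No paired analysis was possible because each age has 1 sample per array and no result comes from a test. The difference in log2 ratio at equal brightness, 0.073, stayed above 0 under the 18 alternatives that could change it and was 0.046 after normexp correction. Leaving ratios uncentred shifts all regions of an array alike and cannot change it. The count of higher calls, 30 of 706 beside 1.94% of other regions, was 69 of 706 beside 2.48% after normexp. It was 60 of 1648 beside 1.85% at a density of at least 4, and 13 of 259 beside 2.00% at a density of at least 6. With at least 3 usable probes it was 19 of 421 beside 1.88%, and on the first array alone 10 of 338 beside 1.28%. At a threshold of 1.5 it was 16 beside 0.991%. These shares of other regions were not matched on brightness. The count of lower calls, 4, was 2 with dim probes kept, 8 uncentred, 1 after normexp, 7 at a density of 4, 1 at a density of 6, 1 with at least 3 usable probes, 2 on each array alone, 2 for promoters only, 9 without a demand on single probes and 2 at a threshold of -1.5. Changes with density, array, annotation or probe number come with other sets of regions, and for normexp the cause was not tested. Matching on G+C share took the difference in log2 signal from 1.74 to -0.080 at 3 months and from 1.88 to -0.0043 at 32 months. On the second array at 32 months it was positive at 0.0094. Over both arrays it was -0.031 and -0.024 when the number of probes was matched as well. The values matched on G+C share alone are averages over bins with differences of both signs. After normexp the difference without matching on G+C share was 0.54 at 3 months and 0.90 at 32 months. The share of probes well above background was 91.5% and 92.1% at a density of at least 6, and 90.4% at 32 months on the first array. Alternatives matching on G+C share for signal, or leaving out the dimmest bin of the second array, were chosen after seeing the data.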
